A study of Mus musculus with 20 samples.

Results

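The flavin monooxygenases (FMO) of the mouse brain are described here in *Winnie* and C57BL/6 mice, with *Fmo2* as the gene of main interest. The members were every listed gene whose name is *Fmo* followed by a digit only, and 3 of the 17211 listed genes, *Fmo1*, *Fmo2* and *Fmo5*, met this rule. The family was proposed because *Fmo2* was already known to differ between the genotypes in these brains, so its difference between *Winnie* and C57BL/6 was selected on the same values and is given as a description with no test. *Fmo1* and *Fmo5* entered by name only. The mouse annotation names 7 such genes, 6 of them on chromosome 1, and the other family members were not analysed here.

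FMO enzymes sit in the membrane of the endoplasmic reticulum, bind flavin adenine dinucleotide (FAD), take electrons from NADPH and use molecular oxygen to add 1 oxygen atom to nitrogen, sulfur or selenium atoms of their substrates. FMO1 also oxidizes hypotaurine to taurine, FMO2 is best known as the FMO of the lung, and FMO5 differs from its relatives in acting mainly as a Baeyer-Villiger monooxygenase, an enzyme that inserts oxygen next to a carbonyl group. FMO transcripts in brain are scarce compared with liver, lung or kidney.

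Brain RNA was sequenced from 20 mice, 10 C57BL/6 and 10 *Winnie*, all aged 14 weeks, with 5 brains labelled female and 5 labelled male in each genotype. C57BL/6 is the wild-type inbred strain, and *Winnie* mice carry a point mutation in *Muc2*, the gene of the main secreted mucin of the intestine, on that background and develop chronic intestinal inflammation without added agents. *Muc2* itself was not analysed here, so the genotype was taken from the labels. Neither group received a treatment, and both came from the same breeding colony according to the methods of the study. Each library was made from the polyA RNA of 1 brain, and levels were given as CPM, the reads of a gene scaled to the same total over all listed genes in every library. Libraries held 16540303 to 23923769 reads, and the median depth was 19176351 reads for C57BL/6 and 19075334 for *Winnie*. *Xist* and *Ddx3y*, which mark female and male cells, matched the sex label in 10 of 10 *Winnie* libraries but in only 1 of 10 C57BL/6 libraries, so sex was compared in *Winnie* alone. Library numbers also ran from the C57BL/6 to the *Winnie* samples without interleaving, so any effect of that order cannot be told apart from genotype. Defining markers of neurons, astrocytes, oligodendrocytes and microglia were detected in every brain.

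*Fmo1* (ENSMUSG00000040181) and *Fmo2* (ENSMUSG00000040170) are neighbours on the minus strand of chromosome 1, at chr1:162829561-162866610 and chr1:162874317-162898726 of GRCm38, with 7.71 kb between them. *Fmo5* (ENSMUSG00000028088) lies on the plus strand of chromosome 3, at chr3:97628804-97655282. All 3 are protein-coding, with 8, 7 and 5 annotated transcripts for *Fmo1*, *Fmo2* and *Fmo5*, and no annotated gene overlaps any of them. Since family members can share reads, the transcripts were compared, and the longest exact stretch in common between a listed FMO gene and another family member was 24 bases over 15 pairs of genes, against sequenced read ends of 100 bases.

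Promoter windows, 250 bases before to 50 bases after a start site, were in the RefSeq table (GRCm38.p6) for 2 of the 3 genes, and are shown to compare the gene that differed most with the one that differed least. Capitals mark matches to the motifs searched on both strands, which were the glucocorticoid receptor monomer site AGAACA, the full palindromic element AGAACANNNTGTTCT that contains it, the aryl hydrocarbon receptor core GCGTG, the TATA box TATAAA and the GC box GGGCGG.
Fmo2, chr1:162898444-162898743, minus strand: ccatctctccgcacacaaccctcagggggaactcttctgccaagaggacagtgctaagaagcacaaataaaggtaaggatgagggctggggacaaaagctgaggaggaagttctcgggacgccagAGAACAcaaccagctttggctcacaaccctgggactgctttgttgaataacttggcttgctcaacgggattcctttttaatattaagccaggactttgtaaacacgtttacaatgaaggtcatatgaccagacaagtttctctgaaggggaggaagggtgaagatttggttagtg
Fmo5, chr3:97628769-97629068, plus strand: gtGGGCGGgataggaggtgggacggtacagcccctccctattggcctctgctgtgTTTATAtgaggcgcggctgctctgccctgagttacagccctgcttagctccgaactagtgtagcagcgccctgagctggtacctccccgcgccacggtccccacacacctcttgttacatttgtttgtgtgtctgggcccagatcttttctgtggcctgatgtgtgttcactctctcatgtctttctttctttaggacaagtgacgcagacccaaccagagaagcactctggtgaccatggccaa
The *Fmo2* window held 1 AGAACA, 125 bases before the start site (position -125), a motif present in 19% of all 32851 windows of the same length. The full glucocorticoid response element was in neither window and in 3 windows (0.00913%) overall. A GCGTG core, present in 32.4% of windows, was in neither. The *Fmo5* window held a TATAAA on the opposite strand at position -195 (13.6% of windows hold one) and a GGGCGG at position -248 (35.7%). A second *Fmo2* window at chr1:162898709-162899008 held none of the motifs. GC content was 47.7% in the first *Fmo2* window, 41.3% in the second and 56% in that of *Fmo5*, beside a median of 52.7% over all windows. These matches describe letters and not bound sites.

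*Fmo2* was the FMO gene whose level differed most between *Winnie* and C57BL/6 mouse brains. In C57BL/6 replicates 1 to 10 it stood at 2.06, 2.29, 1.3, 2.78, 1.45, 1.88, 1.8, 2.18, 2.28 and 3.63 CPM. In *Winnie* replicates 1 to 10 it stood at 5.94, 4.92, 5.08, 4.56, 5.5, 7.05, 8.21, 7.75, 2.99 and 3.36 CPM. All 10 *Winnie* brains lay above the C57BL/6 median and 8 of 10 above the highest C57BL/6 brain, while *Winnie* replicates 9 and 10 fell below C57BL/6 replicate 10, so the groups overlapped. The mean was 2.16 ± 0.672 CPM in C57BL/6 and 5.54 ± 1.74 CPM in *Winnie* (SD, n = 10 each), a ratio of means of 2.56. On the scale of log2(CPM + 0.5) the difference was 1.16, with an SE of 0.162, and 2 of the 17211 genes had a larger difference in size. These levels rested on 28 to 63 reads per C57BL/6 library and 57 to 154 reads per *Winnie* library.

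*Fmo1*, the FMO linked to taurine formation, differed far less. C57BL/6 replicates 1 to 10 stood at 9.02, 8.26, 8.57, 8.23, 8.2, 9, 8.45, 8.65, 8.5 and 7.96 CPM. *Winnie* replicates 1 to 10 stood at 9.74, 10.8, 9.23, 8.95, 9.94, 8.73, 8.96, 9.2, 10.7 and 8.61 CPM. All 10 *Winnie* brains lay above the C57BL/6 median and 6 above the C57BL/6 maximum, but the ranges overlapped from 8.61 to 9.02 CPM. The means were 8.48 ± 0.342 and 9.49 ± 0.784 CPM (SD, n = 10 each), a log2 difference of 0.15 (SE 0.054, 95% interval 0.04 to 0.26), which did not pass the test over all genes (limma, FDR = 0.127).

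*Fmo5* showed no detectable difference. C57BL/6 replicates 1 to 10 stood at 3.77, 5.15, 2.63, 4.04, 3.92, 4.31, 4.06, 4.96, 4.25 and 4.04 CPM. *Winnie* replicates 1 to 10 stood at 3.91, 3.88, 3.63, 4.45, 3.82, 3.52, 3.17, 3.67, 4.25 and 3.48 CPM. The *Winnie* range lay wholly inside the C57BL/6 range, and 8 of 10 *Winnie* brains were below the C57BL/6 median. The means were 4.11 ± 0.683 and 3.78 ± 0.375 CPM (SD, n = 10 each), a log2 difference of -0.10 (SE 0.0858, 95% interval -0.27 to 0.08; limma, FDR = 0.598). The interval contains falls of up to 0.27 on the log2 scale, so smaller changes of *Fmo5* cannot be told from none.

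**Figure D1:**
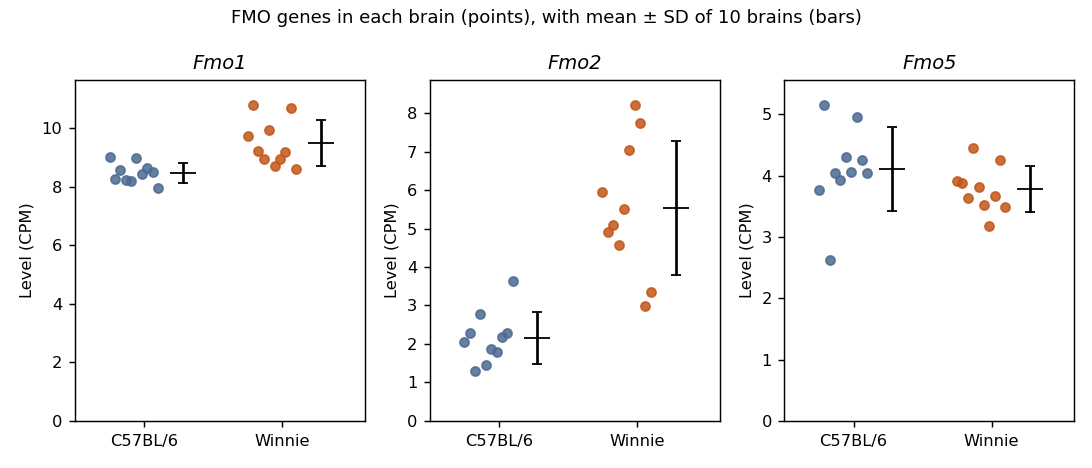
Levels of *Fmo1*, *Fmo2* and *Fmo5* in CPM in each brain, C57BL/6 in blue and *Winnie* in orange, in the order of their replicate numbers, with the mean ± SD of 10 brains beside them. *Fmo2* reached 2.99 to 8.21 CPM in *Winnie* against 1.3 to 3.63 CPM in C57BL/6, while the points of *Fmo5* overlap.

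At FDR under 0.05, neither *Fmo1* nor *Fmo5* was called, beside 434 of 17211 genes (2.52%) in all. No call is given for *Fmo2*, whose own difference put the family forward. Of all genes 261 (1.52%) were called higher and 173 (1.01%) lower in *Winnie*. At the threshold the study set for DEGs, FDR under 0.001 with at least a 1.5-fold difference, limma called 0 genes (0%). The study applied this threshold with edgeR to fewer brains, so this count is no repeat of its result. Without a correction 3030 genes had p under 0.05, and at the study threshold edgeR's quasi-likelihood test on the recovered reads also called 0 and DESeq2 called 12.

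The order of the levels was read after dividing by the combined exon length of each gene (6304 bases for *Fmo1*, 5609 for *Fmo2* and 5675 for *Fmo5*). In C57BL/6 *Fmo1* was highest at 1.35 ± 0.0543 CPM per kb, followed by *Fmo5* at 0.725 ± 0.12 and *Fmo2* at 0.386 ± 0.12 CPM per kb (SD, n = 10), and *Fmo5* exceeded *Fmo2* in CPM in all 10 brains. In *Winnie* the order of the lower pair turned, with *Fmo1* at 1.51 ± 0.124, *Fmo2* at 0.987 ± 0.31 and *Fmo5* at 0.666 ± 0.0661 CPM per kb. *Fmo2* and *Fmo5* lay about 1 SD of *Fmo2* apart in *Winnie*, and with *Winnie* replicates 9 and 10 below *Fmo5* in CPM their brains overlapped. By mean CPM *Fmo1*, *Fmo2* and *Fmo5* stood at the percentiles 39.3, 26.9 and 27.2 of the listed genes.

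*Fmo2* also varied more between brains of one genotype than its relatives. The coefficient of variation (CV, SD as a percentage of the mean) of its CPM was 31% in C57BL/6 and 31.4% in *Winnie*, where counting error alone would give 15.7% and 9.76%. For *Fmo5* the CV was 16.6% and 9.92%, against counting errors of 11.4% and 11.8%. For *Fmo1* it was 4.03% and 8.26%, against 7.88% and 7.46%. The SD of *Fmo2* was thus 1.98 and 3.22 times its counting SD in C57BL/6 and *Winnie*, while that of *Fmo1* and *Fmo5* was between 0.512 and 1.46 times. The difference in spread between the genes was not tested.

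Within *Winnie* mice, where the sex labels fitted the RNA, the comparison of labelled females with males passed the test for none of the FMO genes. The mean difference (female minus male) on the log2 scale was 0.07 for *Fmo1*, -0.06 for *Fmo2* and 0.11 for *Fmo5*, with Benjamini-Hochberg adjusted p of 0.488, 0.841 and 0.488 (two-sided exact permutation test, 5 against 5, smallest possible p 0.00794). *Fmo2* ranged from 4.56 to 5.94 CPM in the 5 labelled females (SD 0.533) and from 2.99 to 8.21 CPM in the 5 labelled males (SD 2.5). The 3 highest and the 2 lowest *Winnie* brains for *Fmo2* were all labelled male, so the labelled females lay between them. The difference between these spreads was not tested.

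The listed genes that flank the FMO genes differed less in size than *Fmo2* did. Because *Fmo2* was selected for its own difference, nothing is read from this order. Within 500 kb of an FMO gene 14 other genes were listed, with log2 differences from -0.12 to 0.19, and 1 of them passed FDR under 0.05, beside 2.52% of all genes, a count from which nothing particular to the region is read. This was *Prrc2c*, which codes for a protein of stress granules and lies 134 kb from *Fmo2*; it stood at 235 ± 23.4 CPM in C57BL/6 and 268 ± 12.7 CPM in *Winnie* (SD, n = 10 each; log2 difference 0.19, SE 0.0454; limma, FDR = 0.0216), and its call was lost without C57BL/6 replicate 5 (FDR = 0.0552) and with the replicate number as a block (FDR = 0.0669). *Prrx1*, on the other side of *Fmo2* at 346 kb, had a log2 difference of 0.00, and *Myoc*, at 225 kb, one of -0.12. Near *Fmo5* 0 of 7 genes were called by limma at FDR under 0.05, with log2 differences from -0.11 to 0.09.

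**Figure D2:**
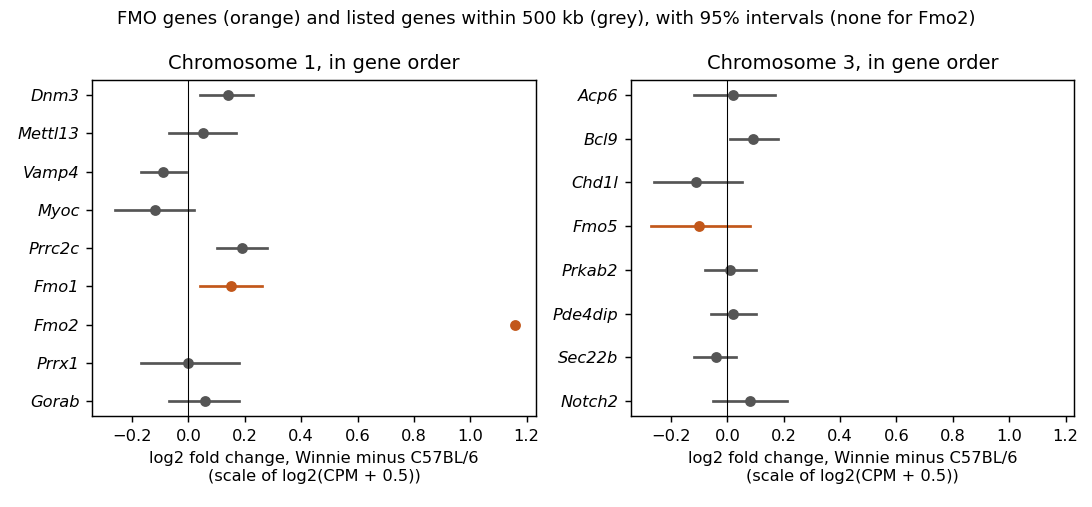
Log2 fold change between *Winnie* and C57BL/6 brains, for the FMO genes (orange) and the listed genes within 500 kb (grey), with 95% intervals for all but *Fmo2*, in their order along chromosomes 1 and 3. *Fmo2*, selected for its difference, stands at 1.16, and its neighbours lie between -0.12 and 0.19.

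Between brains of the same genotype no pair of FMO genes passed a test of moving together. After subtracting the mean of each genotype, Pearson's r over the 20 brains was -0.35 for *Fmo1* and *Fmo2*, 0.17 for *Fmo1* and *Fmo5* and 0.06 for *Fmo2* and *Fmo5*, with adjusted p of 0.498, 0.572 and 0.806 over the 3 pairs (permutation test within genotype). Spearman's rho was -0.28, 0.30 and -0.05, with adjusted p of 0.374, 0.374 and 0.852. Without the 2 brains farthest from the median of the first gene, r was -0.16, 0.07 and 0.19. Within C57BL/6 alone r was -0.43, -0.09 and 0.47 and within *Winnie* -0.34, 0.49 and -0.54, with the smallest adjusted p at 0.224 (permutation test, 3 pairs within each genotype).

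Each FMO gene was then set against the summed level of markers of 10 cell types, which gave 30 pairs. One pair passed an adjusted p of 0.05 by Pearson's r. *Fmo2* was lower in brains with more transcript of the 8 microglia markers, with r = -0.72 over genotype-centred values of 20 brains (permutation p = 0.00054, adjusted p = 0.0162). Spearman's rho was weaker and did not pass, at -0.49 (permutation p = 0.0359, adjusted p = 0.575). Within genotypes r was -0.53 in C57BL/6 and -0.81 in *Winnie*, and without the 2 brains farthest from the median of the microglia sum it was -0.56. *Winnie* replicate 9 had both the lowest *Fmo2* level of its genotype and the highest microglia sum, 381 CPM, and without it r was -0.62. After median-ratio scaling r was -0.66 and the call was lost (adjusted p = 0.0849). Spearman's rho was then -0.69 and did not pass either (adjusted p = 0.051 by permutation). In whole brain tissue, fewer cells of a type and less RNA per cell cannot be told apart.

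The other 29 pairs did not pass. *Fmo2* and the 9 neuron markers had r = -0.44 in C57BL/6 and 0.87 in *Winnie*, opposite in sign, and 0.14 over both (adjusted p = 0.701 by permutation); the difference between the genotypes was not tested. *Fmo1* had its strongest relation with oligodendrocyte markers, r = -0.49 (rho = -0.48, adjusted p = 0.132 for r and 0.575 for rho by permutation). *Fmo5* had its strongest one with the same markers, r = 0.58 (rho = 0.23, adjusted p = 0.132 and 0.741 by permutation), with r = 0.85 in C57BL/6 and -0.13 in *Winnie*. After microglia, *Fmo2* had its strongest relations with choroid plexus (r = -0.45) and ependyma markers (r = -0.43). Neither passed (adjusted p of 0.338 and 0.384 by permutation). *Fmo2* had r = 0.27 with endothelial markers, 0.21 with fibroblast markers and -0.21 with mural cell markers, none of which passed (adjusted p of 0.592, 0.701 and 0.701 by permutation). The sign of its r also differed between C57BL/6 and *Winnie* for ependyma (0.49 and -0.77), fibroblast (0.69 and -0.25) and astrocyte markers (0.60 and -0.34). The same held for mural cell (0.22 and -0.62) and oligodendrocyte markers (0.51 and -0.26). These differences were not tested.

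Of the 10 marker lists, 4 had called members, beside 2.52% of all genes called. These members were *Slc22a6* of 14 fibroblast markers (log2 difference 0.39), *Slc2a1* and *Cldn5* of 10 endothelial markers (0.45 and -0.47), *Abcc9* of 8 mural cell markers (0.29) and *Gjb6* of 10 astrocyte markers (0.22), with none in the neuron, oligodendrocyte, microglia, choroid plexus, ependyma or red blood cell lists by limma at FDR under 0.05. The calls of *Slc2a1* and *Cldn5* held without any 1 brain, that of *Slc22a6* was lost without C57BL/6 replicate 5 (FDR = 0.0538), and those of *Abcc9* and *Gjb6* held in 6 and 9 of 20 such fits. With the replicate number as a block the calls of *Slc22a6* (limma, FDR = 0.0524) and *Abcc9* were lost, and *Abcc9* was also not called by edgeR. Median log2 differences by list of markers ran from -0.28 for the 5 red blood cell markers to 0.11 for the fibroblast markers. The 10 endothelial markers summed to a mean of 322 CPM in C57BL/6 (283 to 378) and 369 CPM in *Winnie* (343 to 391). Within this sum *Slc2a1* had means of 95.6 CPM in C57BL/6 and 130 CPM in *Winnie*, and *Cldn5* means of 16.4 and 11.7 CPM. The 10 choroid plexus markers summed to 911 CPM in C57BL/6 (769 to 1090) and 805 CPM in *Winnie* (527 to 1070), and 1 of the 10 had a difference above 0. Most of this sum was *Ttr* alone, with means of 803 CPM in C57BL/6 and 698 CPM in *Winnie*. The 14 fibroblast markers summed to 256 CPM (203 to 288) and 272 CPM (237 to 312), and the 8 microglia markers to 339 CPM (321 to 359) and 319 CPM (295 to 381). No marker was at 0 in any brain. The part of cell makeup in the *Fmo2* difference was not tested.

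To describe which transcripts followed each FMO gene most closely, all 15167 other genes with a mean of at least 1 CPM were ranked by r over the genotype-centred levels of the 20 brains. These genes were picked as extremes, so r is a description of likeness in these libraries and carries no p. *Fmo2* was most like *Ksr1*, a scaffold of the RAF-MEK-ERK cascade (r = 0.81, rho = 0.76), followed by *Map4k3* (0.77), *Mfsd2a*, the lipid transporter of brain endothelium (0.75), *Rapgef2* (0.74) and *Gpr161* (0.74). It ran most opposite to *Rlbp1*, a retinaldehyde-binding protein (r = -0.79), *Them6* (-0.77) and *Fam198a* (-0.76). *Ksr1* was between 71.9 and 98.5 CPM in *Winnie*, and the 3 *Winnie* brains highest in *Fmo2*, replicates 6, 7 and 8, were also the 3 highest in *Ksr1*. Leaving out 1 brain at a time kept r for *Ksr1* between 0.78 and 0.85. *Ksr1* itself was higher in *Winnie* by 0.21 on the log2 scale (limma, FDR = 0.0464), a call that held in 7 of 20 fits without 1 brain. That call was also lost after median-ratio scaling, with the *Ddx3y* level as a covariate, with the replicate number as a block and with edgeR. *Map4k3*, *Mfsd2a*, *Rapgef2*, *Gpr161*, *Rlbp1*, *Them6* and *Fam198a* were not called.

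*Fmo1* and *Fmo5* were followed by other genes. *Fmo1* was most like *Emcn*, an endothelial sialomucin (r = 0.73, though rho was 0.47), *Ppp1r3d* (0.71), *Tead2* (0.66), *Cdkn1c* (0.63) and *Zfp36* (0.63), and most unlike *Mettl21a* (-0.77), *Aurkaip1* (-0.73) and *Tm2d3* (-0.72). *Fmo5* was most like *H2-K1*, a classical class I antigen-presenting molecule (0.80), *Tgfbr3* (0.79), *Dnah11* (0.78), *Clec14a* (0.78) and *Creb5* (0.78), and most unlike *Fastkd5* (-0.80), *Enc1* (-0.79) and *Ptgs2* (-0.79). Of these 16 genes 1, *Tgfbr3*, was called between the genotypes (log2 difference 0.28; limma, FDR = 0.0354), and its call held in 12 of 20 fits without 1 brain.

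Pathways that supply or surround the FMO enzymes were described from lists chosen with earlier results of these brains known. Counts stand beside the 2.52% of all genes called and the median log2 difference of 0.00 over all genes. *Por*, which codes for the NADPH-cytochrome P450 reductase of the same membrane, was the called member of 11 genes of microsomal electron transfer and epoxide hydrolysis. It was at 67.5 ± 3.73 CPM in C57BL/6 and 75.7 ± 3.9 CPM in *Winnie* (SD, n = 10 each; log2 difference 0.17, SE 0.0383; limma, FDR = 0.0197), with all 10 *Winnie* brains above the C57BL/6 median, and the call held in all 20 fits without 1 brain. Of 25 listed genes named *Cyp* and a digit, which are cytochromes P450, the other large class of microsomal monooxygenases, except for the opposite-strand transcript *Cyp4x1os*, 1 was called, *Cyp4f15*, a fatty acid omega-hydroxylase family member. It was at 12.5 ± 1.42 CPM in C57BL/6 and 15.4 ± 1.38 CPM in *Winnie* (log2 difference 0.30, SE 0.0633; limma, FDR = 0.0112), again in all 20 fits without 1 brain. The medians of these lists were 0.01 and 0.02 on the log2 scale.

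The cofactor and substrate pathways of FMO enzymes held no called gene by limma at FDR under 0.05. This covered 12 genes of NADPH supply (median log2 difference -0.01, from -0.11 for *Nnt* to 0.08 for *Idh2*) and 5 of riboflavin uptake and FAD synthesis (median 0.01, from -0.16 for the riboflavin transporter gene *Slc52a3* to 0.17 for *Slc25a32*, which carries folate and FAD into mitochondria). It also covered 5 genes of taurine synthesis and transport (median -0.04), of which the taurine transporter gene *Slc6a6* came nearest the threshold. *Slc6a6* stood at 144 ± 15.1 CPM in C57BL/6 and 161 ± 7.53 CPM in *Winnie* (log2 difference 0.17; limma, FDR = 0.0538), with all 10 *Winnie* brains above the C57BL/6 median. Likewise 0 of 8 genes of amine oxidation by other enzymes (median 0.07), a list that also holds the N-methyltransferase gene *Inmt*, and 0 of 10 of sulfoxide reduction and thiol defence (median -0.06) were called. Apart from *Inmt*, the largest difference in these lists was that of the aldehyde oxidase gene *Aox3* (log2 difference 0.32; limma, FDR = 0.0738). *Inmt* was at 0.659 ± 0.404 CPM in C57BL/6 and 1.06 ± 0.335 CPM in *Winnie* (log2 difference 0.47; limma, FDR = 0.124).

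**Figure D3:**
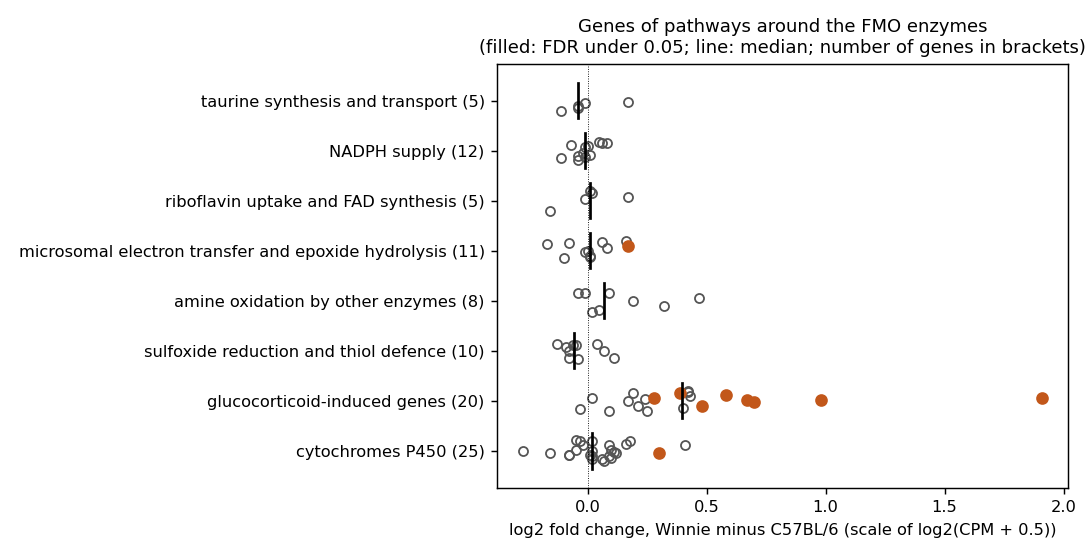
Log2 fold change between *Winnie* and C57BL/6 brains for each gene of 8 lists around the FMO enzymes; filled points passed FDR under 0.05 and the line is the median of the list. The filled points are 8 glucocorticoid-induced genes, *Por* and *Cyp4f15*.

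Genes that glucocorticoids are known to induce held the most called members of the lists. Of 20 such genes 8 were called higher in *Winnie* and 0 lower by limma at FDR under 0.05, beside 2.52% of all genes. The difference was above 0 for 19 of the 20, with a median of 0.40. The called genes were *Plin4* (log2 difference 1.91), *Sgk1* (0.98), *Arrdc2* (0.70), *Sult1a1* (0.67), *Map3k6* (0.58), *Tsc22d3* (0.48), *Klf15* (0.39) and *Errfi1* (0.28), of which *Plin4* codes for a lipid droplet coat protein, *Sgk1* for a kinase and *Tsc22d3* for the leucine zipper protein GILZ. The list was put together after these differences were known, so its count, median and direction are no independent evidence. The number called ran from 5 to 9 when 1 brain was left out; it was 5 without C57BL/6 replicate 3, 4, 5, 8 or 9 or *Winnie* replicate 2, 3 or 7. *Plin4*, *Sult1a1*, *Map3k6*, *Tsc22d3* and *Klf15* were called in all 20 such fits. *Sgk1* and *Arrdc2* were not called with the replicate number as a block.

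*Fmo2* followed some of these genes from brain to brain and not others, and the higher r were those among *Winnie* brains. Over genotype-centred levels, 5 of the 20 genes (25%) had r of at least 0.5 with *Fmo2*, beside 340 of 15167 genes (2.24%), while the median r was 0.05 for the list and 0.02 for all genes. The 5 were *Plin4* (r = 0.73), *Fkbp5*, a cochaperone of the glucocorticoid receptor (0.64), *Zbtb16* (0.62), *Map3k6* (0.54) and the metallothionein gene *Mt2* (0.51). Among *Winnie* brains alone r was 0.90 for *Fkbp5*, 0.88 for *Zbtb16*, 0.78 for *Map3k6* and 0.62 for *Mt2*, and among C57BL/6 brains 0.09, 0.25, 0.10 and 0.31; the difference between the genotypes was not tested. *Fkbp5*, *Zbtb16*, *Mt2*, *Dusp1* and *Per1* were not called between the genotypes and were chosen for mention after their r was seen. The other end of the list held *Dusp1* (-0.48) and *Per1* (-0.41), and *Sgk1* was at -0.24. Among *Winnie* brains alone these were at -0.43, -0.67 and -0.11. For other called genes r among *Winnie* brains was 0.62 for *Tsc22d3*, 0.54 for *Sult1a1*, 0.09 for *Arrdc2*, -0.00 for *Errfi1* and -0.04 for *Klf15*. Over genotype-centred levels none of the 20 reached 0.5 with *Fmo1* (highest 0.36) or *Fmo5* (highest 0.01), where 0.363% and 4% of all genes did.

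*Plin4* and *Fmo2* ranked the *Winnie* brains in nearly the same order. *Plin4* stood at 44.4, 34.5 and 31 CPM in *Winnie* replicates 6, 7 and 8, the 3 brains highest in *Fmo2*, and at 5.72 and 4.9 CPM in replicates 9 and 10, the 2 lowest. In the other *Winnie* brains it was between 7.88 and 16.3 CPM. The relation was r = 0.94 within *Winnie* and 0.29 within C57BL/6, where *Plin4* spanned 1.47 to 7.29 CPM, and the difference between the genotypes was not tested. Over both genotypes r was between 0.68 and 0.81 without any 1 brain, and rho was 0.72. *Winnie* replicates 6, 7 and 8 have the adjacent library numbers 16, 17 and 18 and are all labelled male. Leaving out 1 brain at a time does not remove these 3 together. The part of library order in the relations within *Winnie* was not tested.

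**Figure D4:**
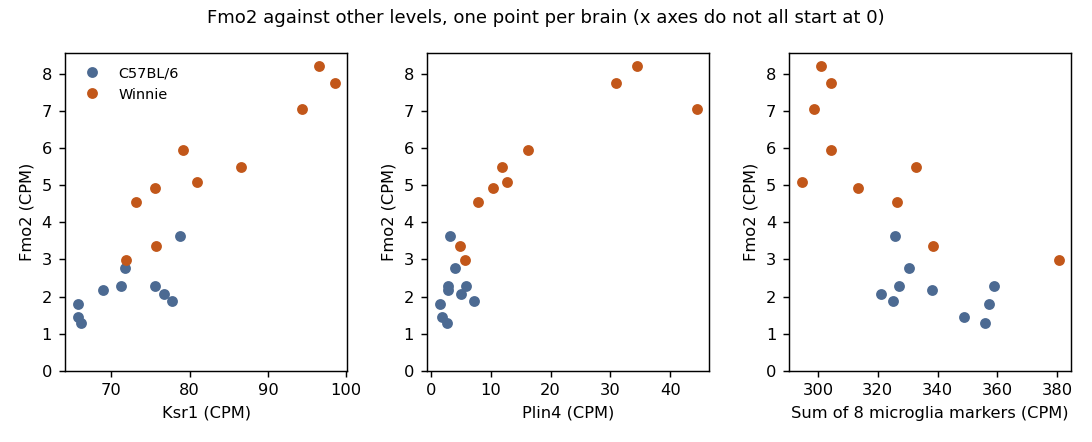
*Fmo2* level (CPM) against *Ksr1*, *Plin4* and the sum of 8 microglia markers (CPM), 1 point per brain, C57BL/6 in blue and *Winnie* in orange. *Fmo2* was highest in the *Winnie* brains with *Plin4* at 31 to 44.4 CPM, and the *Winnie* brain with the highest microglia sum, 381 CPM, had the lowest *Fmo2* of its genotype, 2.99 CPM.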

How the data were processed

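PolyA RNA of 20 mouse brains was sequenced on an MGISEQ-2000RS with paired-end reads. The authors processed the reads with the RNAsik pipeline version 1.5.4 on GRCm38, counted them per gene with featureCounts and deposited CPM made with Degust. The aligner settings and the strandedness of the counting are not given in the sources used here. For each deposited gene, 4 or more samples reach 0.5 CPM.

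CPM values were tested as log2(CPM + 0.5) with limma 3.58.1 (R 4.3.3; trend and robust variance), fitted on all 17211 genes and 20 samples with Benjamini-Hochberg adjustment and no covariate, and genes were called at FDR under 0.05. A fold change on this scale understates that of low genes. The study's own threshold was also applied, although the paper describes fewer brains than the 20 labelled here, and all 20 were used. All CPM values were whole multiples of 1 read within 0.15 read, so reads were recovered for edgeR 4.0.16 and DESeq2 1.42.0 as alternatives. Depth was 16540303 to 23923769 reads per sample, and counting errors cover sampling of reads only. Replicates are brains of different mice according to the labels. Sex labels in *Winnie* were compared by exact permutation, and correlations by 100000 permutations within genotype. Scripts were tested on simulated data.

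Gene positions and exon lengths came from GENCODE M21 (GRCm38), in which 17128 listed genes were found, and promoter windows from RefSeq (GRCm38.p6). The named genes were the FMO genes, the 5 most and 3 least like each of them, their neighbours within 500 kb, and called members of each list (where none was called, the 2 with the largest difference were eligible). *Fkbp5*, *Zbtb16*, *Mt2*, *Dusp1* and *Per1* were named outside this rule, after their values were seen. The FMO genes, lists and markers were chosen with earlier results of these data known.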

Additional observations from a re-analysis of the deposited data

Results flagged for a closer look

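Each FMO gene was examined for a brain standing apart from the rest of its group, in 12 groups (each gene in each genotype and in each labelled sex of *Winnie*), of which chance flags about 1 in 20. One value stood out. Among the 5 *Winnie* brains labelled male, replicate 9 had *Fmo1* at 10.7 CPM, against 8.61 to 9.2 CPM in the other 4. Its gap to the nearest brain was 0.718 of the range, just over Dixon's critical value of 0.71. Among all 10 *Winnie* brains it did not stand apart, since replicate 2 was at 10.8 CPM.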

How the results depend on the processing

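The log2 difference between genotypes kept its sign for all 3 FMO genes, and *Fmo1* and *Fmo5* stayed uncalled, in all 9 other settings and all 20 fits without 1 brain. *Fmo2* ranged from 1.03 (pseudocount 1) to 1.37 (edgeR), *Fmo1* from 0.14 to 0.16 (FDR from 0.105 to 0.226 over all alternatives) and *Fmo5* from -0.12 to -0.09 (FDR from 0.302 to 0.754). Without 1 brain the ranges were 1.10 to 1.24, 0.13 to 0.16 and -0.16 to -0.06. No call is given for *Fmo2*, whose own difference put the family forward. The number of all genes called, 434, fell to 227 with the replicate block and rose to 977 with DESeq2, and ran from 169 to 694 without 1 brain, the lowest without C57BL/6 replicate 5 and the highest without C57BL/6 replicate 10; the cause was not tested. At the study's threshold the count of 0 became 12 with DESeq2 and ran from 0 to 2 without 1 brain. The replicate numbers do not pair the samples: r of same-numbered brains ran from -0.29 to 0.15, and 1 of 10 C57BL/6 brains correlated best with its own number. With the replicate block *Fmo2* stayed at 1.16, *Fmo1* at 0.15 and *Fmo5* at -0.10. Of the 30 pairs of FMO gene and marker list, 0 passed after median-ratio scaling instead of 1; the cause was not tested. The relation of *Fmo2* to the microglia markers without each brain in turn, tried after seeing the data, gave r from -0.77 to -0.62. After the same scaling 2 pairs near 0 changed sign, *Fmo1* with neuron markers from -0.03 to 0.30 and with astrocyte markers from -0.01 to 0.24. The relations between FMO genes and the sex differences kept their sign and stayed short of the threshold under the alternatives run for them. Counts of 28 to 63 reads limit how closely *Fmo2* is known in C57BL/6.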
